A study of Mus musculus with 8 samples.

Results

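The 10 genes described here encode core and accessory subunits of the Polycomb repressive complexes PRC1 and PRC2: Ezh1, Ezh2, Eed, Suz12 and Jarid2 of PRC2, and Bmi1, Ring1, Rnf2, Cbx7 and Cbx8 of PRC1. They were taken as a fixed list of gene symbols, which were matched in the deposited table of normalised values and joined by Ensembl identifier to the deposited table of counts. All 10 were found among the 53801 genes of the count table, and all 10 were among the 16445 genes with enough counts to be tested.

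PRC2 places methyl groups on lysine 27 of histone H3 through its catalytic subunits Ezh1 and Ezh2, which need Eed and Suz12 to be active. PRC1 attaches ubiquitin to histone H2A through its ring finger ligases Ring1 and Rnf2, and its chromobox (Cbx) and Pcgf subunits set the form of the complex and its binding to chromatin. Both complexes keep developmental genes silent and work against the Trithorax family of activating H3K4 methyltransferases, to which Mll1 belongs, and in the intestine they are known for keeping stem and progenitor cells proliferating.

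The libraries were RNA-seq of Lgr5-GFP+ intestinal stem cells sorted from 8 mice, of which 4 carried the label β-cat GOF; Mll1+/- and the other 4 the label β-cat GOF; Mll1-/-. In both genotypes the mice carried the Lgr5-EGFP-IRES-CreERT2 driver, which marks Lgr5+ stem cells and recombines only in part of the crypts, and a β-catenin allele stabilised by deletion of exon 3. Tamoxifen was injected at 50 mg/kg on 3 days into mice 4 to 6 weeks old, and 300 cells per mouse were sorted 10 days after induction. The control group thus also carried stabilised β-catenin and the deletion of 1 Mll1 allele, and no mouse with both Mll1 alleles intact was compared. The study placed Mll1 against Polycomb silencing of stem cell genes. Its histone marks and EZH2 inhibition for this came from human colon cancer cells after MLL1 knockdown. In the sorted mouse cells it reported lower Olfm4 and no significant change of Lgr5 or Smoc2. The comparison here asks whether the transcripts of the Polycomb complexes themselves differed between the genotypes.

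Levels are stated as CPM, in which counts are set relative to the TMM-scaled count total of the library, and libraries are named by the number in their label. The counts on genes were 14468751 to 16847793 per library, and 3 counts, taken as the floor of detection, corresponded to 0.162 to 0.241 CPM. Lgr5 lay at 215 to 308 CPM and Epcam at 1255 to 1697 CPM. Ptprc, the leukocyte marker, lay at 0 to 0.957 CPM, Col1a1 at 0 to 0.854 CPM and Pecam1 at 3.95 to 5.91 CPM. Kmt2a, which encodes Mll1, was not lower in the libraries labelled Mll1-/- (59.5, 62.6, 78.5 and 53.5 CPM in J_7075, J_7096, J_7135 and J_7136) than in those labelled Mll1+/- (50.2, 64.9, 51.2 and 48.9 CPM in J_7079, J_7100, J_7134 and J_7139). Counts were summed over all exons, so a transcript that lacked only the deleted exons would still be counted, and this level does not check the labels. The study also saw crypts without recombination in Mll1-/- mice, and the share of such cells in these libraries was not tested. The library J_7135, labelled Mll1-/-, stood apart from the others: its highest Spearman correlation with another library was 0.909, against at least 0.947 for the others, and it held Xist at 208 CPM together with Y-linked transcripts at 165 CPM in sum. In the other libraries with Y-linked transcripts above 1 CPM Xist was at 0 to 2.84 CPM. For the 10 Polycomb genes, fold changes that moved by over 1.5 times without it are given with and without it. Those of other genes are given with all libraries unless stated otherwise, and some of them also moved without it.

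None of the 10 genes passed the threshold of an adjusted p under 0.1 in edgeR's quasi-likelihood test (two-sided, Benjamini-Hochberg over all genes tested), where 14 genes, or 0.0851% of those tested, did so. At an unadjusted p under 0.05, 1 of the 10 was found, Rnf2, while 9.15% of all genes reached it. This gene changed with the libraries and the test: without J_7135 and with limma-voom it was Bmi1 and not Rnf2, and without J_7100 or J_7136 none was found. Bmi1 and Rnf2, both of PRC1, were the members in which every library labelled Mll1-/- lay below every library labelled Mll1+/-, 2 of 10 against 2.94% of all genes. None lay above without overlap, against 3.34% of all genes. Without J_7135 Bmi1 and Rnf2 again did not overlap, and the shares of all genes were then 4.58% lower and 5.28% higher. The log2 fold changes of the 10 genes, Mll1-/- over Mll1+/-, had a median of 0.098, beside 0.0076 over all genes tested, with 6 above 0 and 4 below.

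**Figure D1:**
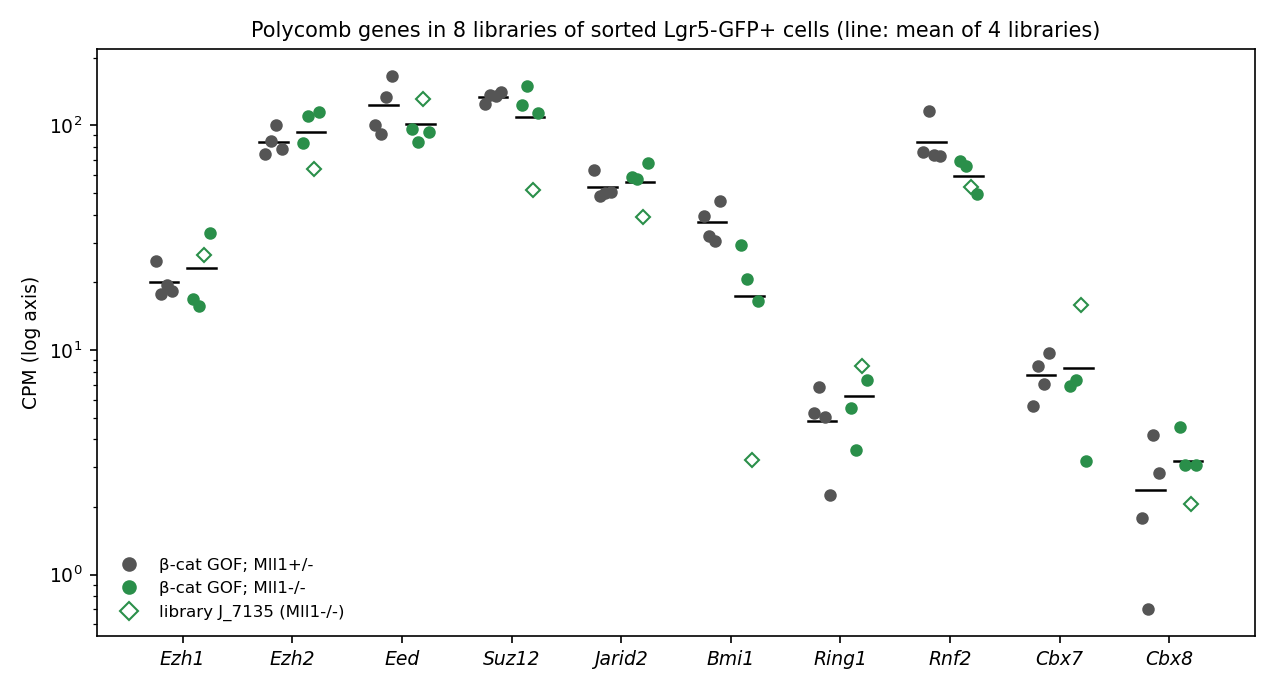
Levels of the 10 Polycomb genes in CPM on a log axis, 1 point per library, with the mean of the 4 libraries of each genotype as a line; the diamond is J_7135. Bmi1 and Rnf2 are the genes whose genotypes do not overlap, and J_7135 holds the lowest Bmi1 level, 3.25 CPM.

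Ezh2 and Ezh1 are the alternative methyltransferases of PRC2, of which Ezh2 prevails in dividing cells and Ezh1 in resting ones. Ezh2 (chr6:47530139-47595341 in mm10, - strand) was found at 74.7, 84.9, 100.2 and 78.3 CPM in the Mll1+/- libraries J_7079, J_7100, J_7134 and J_7139. In the Mll1-/- libraries J_7075, J_7096, J_7135 and J_7136 it was found at 83.7, 110.0, 63.9 and 114.7 CPM. Both the lowest and the highest level belonged to Mll1-/- libraries, and the genotypes overlapped. The means were 84.5 ± 11.3 and 93.1 ± 23.8 CPM (SD, n = 4 each), a log2 fold change of 0.14 with a 95% interval of -0.31 to 0.58 (edgeR, adjusted p = 0.878). The interval reached from 0.809-fold to 1.50-fold, so these libraries leave room for a change of the Ezh2 transcript within these bounds. The smallest change that they could detect was not computed. Without J_7135 the log2 fold change was 0.28, and with any library left out it lay between 0.025 (without J_7136) and that value.

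Ezh1 (chr11:101191115-101226463, - strand) was the less abundant of the catalytic subunits. It lay at 24.8, 17.6, 19.4 and 18.2 CPM in the Mll1+/- libraries and at 16.9, 15.6, 26.4 and 33.3 CPM in the Mll1-/- libraries, in the same order of animals. Its Mll1-/- levels split to both sides of the Mll1+/- levels, and the log2 fold change was 0.20 ± 0.27 (SE; edgeR adjusted p = 0.866), 0.13 without J_7135 and -0.025 without J_7136. Within each library, with 1 count added to each gene, the counts of Ezh2 exceeded those of Ezh1 by 3.01 to 5.14 times in Mll1+/- and by 2.41 to 7.01 times in Mll1-/-. The mean log2 ratio of the counts differed by -0.036 from Mll1+/- to Mll1-/- (two-sided exact permutation over 70 assignments, p = 0.943), and by 0.22 without J_7135.

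Eed, which binds the methylated lysine and stimulates the enzyme, and Suz12, which holds the complex together, were the members with the highest levels per length. Eed (chr7:89954654-89980983, - strand) ranged from 91.0 to 165.7 CPM in Mll1+/- and from 84.5 to 130.6 CPM in Mll1-/-, with a log2 fold change of -0.28 ± 0.22 (SE; edgeR adjusted p = 0.740). Without J_7135 it was -0.43, and without J_7139 it was -0.11. Suz12 (chr11:79993106-80034123, + strand) was found at 124.6, 135.6, 134.3 and 141.1 CPM in the Mll1+/- libraries, which differed little among themselves. In the Mll1-/- libraries J_7075, J_7096 and J_7136 it was found at 122.9, 149.1 and 113.7 CPM, and in J_7135 at 51.5 CPM. Only J_7135 fell far from the other 7 libraries. The log2 fold change was -0.29 ± 0.27 (SE; edgeR adjusted p = 0.789), and without J_7135 it was -0.059. Jarid2 (chr13:44729474-44921643, + strand), an accessory subunit that guides PRC2 to chromatin, lay at 48.2 to 63.2 CPM in Mll1+/- and at 39.2 to 67.8 CPM in Mll1-/-, with overlap and a log2 fold change of 0.078 (95% interval -0.35 to 0.50), which was 0.21 without J_7135 and -0.028 without J_7136. Exons of other genes covered 1.54 to 6.82% of the exonic bases of Ezh2, Eed, Suz12, Rnf2 and Cbx7, with the highest share in Eed, under E230029C05Rik, and reads were counted without strand. No 31-base word was shared between the transcripts of Ezh1 and Ezh2, of Ring1 and Rnf2, or of Cbx7 and Cbx8.

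Bmi1 (chr2:18677018-18686629, + strand; ENSMUSG00000026739), also called Pcgf4, is the subunit of canonical PRC1 that activates its ligase. It is best known for holding down the Cdkn2a locus, which encodes inhibitors of the cell cycle. Its level was 39.4, 32.2, 30.6 and 45.9 CPM in the Mll1+/- libraries J_7079, J_7100, J_7134 and J_7139, from 381 to 711 counts. In the Mll1-/- libraries J_7075, J_7096, J_7135 and J_7136 it was 29.2, 20.7, 3.25 and 16.5 CPM, from 60 to 495 counts. The genotypes did not overlap, though the highest Mll1-/- level lay close to the lowest Mll1+/- level. The means were 37.0 ± 7.06 and 17.4 ± 10.8 CPM (SD, n = 4 each). The log2 fold change was -1.09 with a 95% interval of -2.24 to 0.060, which includes 0 (edgeR adjusted p = 0.564). Without J_7135 it was -0.74, and the edgeR adjusted p of 0.358 again missed the threshold. The spread among the Mll1-/- libraries then fell to 6.48 CPM (SD, n = 3) around a mean of 22.1 CPM. Because these are bulk samples, fewer cells that express a gene and less RNA per cell cannot be told apart.

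The column headers of the count table number the libraries in 2 runs of consecutive numbers, each with 2 libraries per genotype. Within the first, with J_7075, J_7079, J_7096 and J_7100, the mean log2 CPM of Bmi1 differed by -0.53 between the genotypes, and within the other by -2.33. The direction held in both runs, and the run that holds J_7135 gave the larger difference. In the first run genotype went together with sex-linked transcripts. J_7079 and J_7100 held Xist at 523 and 517 CPM, and J_7075 and J_7096 held Y-linked transcripts at 307 and 322 CPM in sum. Differences of genotype and of sex cannot be told apart within that run, for Bmi1 or any other gene. Of the 31-base words in the Bmi1 transcripts 28.2% also occurred in transcripts of other genes, nearly all of them in Gm5946, to which 3 to 20 counts were assigned per library. Reads from this stretch can be lost from unique mapping or assigned to either gene, and the level of Bmi1 is uncertain to that extent. No exon of another gene overlapped it.

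Rnf2 (chr1:151458004-151500955, - strand; ENSMUSG00000026484), also called Ring1b, is the ligase that carries most of the H2A ubiquitination by PRC1. It was found at 75.6, 115.2, 73.5 and 73.1 CPM in the Mll1+/- libraries J_7079, J_7100, J_7134 and J_7139. In the Mll1-/- libraries J_7075, J_7096, J_7135 and J_7136 it was found at 69.6, 65.9, 53.1 and 49.6 CPM. Every Mll1-/- library lay below every Mll1+/- library, but J_7100 stood well above the other 3 of its genotype. The means were 84.4 ± 20.6 and 59.5 ± 9.68 CPM (SD, n = 4 each), and the log2 fold change was -0.50 with a 95% interval of -0.94 to -0.068 (edgeR adjusted p = 0.494). Without J_7100 it was -0.32 (edgeR adjusted p = 0.756), and without J_7135 it was -0.45 (edgeR adjusted p = 0.572). Within the 2 runs of library numbers the mean log2 CPM of Rnf2 differed by -0.46 and -0.51.

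Ring1 (chr17:34020792-34024680, - strand), the other ligase, was found at 2.26 to 6.82 CPM in Mll1+/- and at 3.59 to 8.44 CPM in Mll1-/-, with a log2 fold change of 0.36 ± 0.41 (SE; edgeR adjusted p = 0.842). Without J_7135 it was 0.17, without J_7139 0.12 and without J_7100 0.57. Rnf2 had 14.2 to 31.5 times the counts of Ring1 in the Mll1+/- libraries and 6.26 to 18.1 times in the Mll1-/- libraries. The mean log2 ratio was lower by -0.88 in Mll1-/-, with overlapping libraries (two-sided exact permutation, p = 0.143, adjusted over 4 ratios 0.286). Within the runs it differed by -0.034 and by -1.72.

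The chromobox members Cbx7 and Cbx8, which read the methylated lysine for canonical PRC1, had the lowest levels per length. Cbx7 (chr15:79915807-79971119, - strand) lay at 5.62 to 9.68 CPM in Mll1+/- and at 3.22 to 15.9 CPM in Mll1-/-, where J_7135 was the highest and J_7136 the lowest of all 8 libraries. Its log2 fold change was 0.12 and turned to -0.40 without J_7135, with neither past the threshold (edgeR adjusted p = 0.962 and 0.830). Cbx8 (chr11:119036305-119040969, - strand) was found at 0.703 to 4.17 CPM in Mll1+/- and at 2.06 to 4.54 CPM in Mll1-/-. Its log2 fold change of 0.43 had an interval of -0.79 to 1.64, and it was 0.12 without J_7100, 0.84 without J_7134 and 0.99 with limma-voom. The ratio of Cbx7 to Cbx8 counts did not separate the genotypes (difference of mean log2 ratio -0.69, exact permutation p = 0.429; -1.26 without J_7135 and -0.16 without J_7100).

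**Figure D2:**
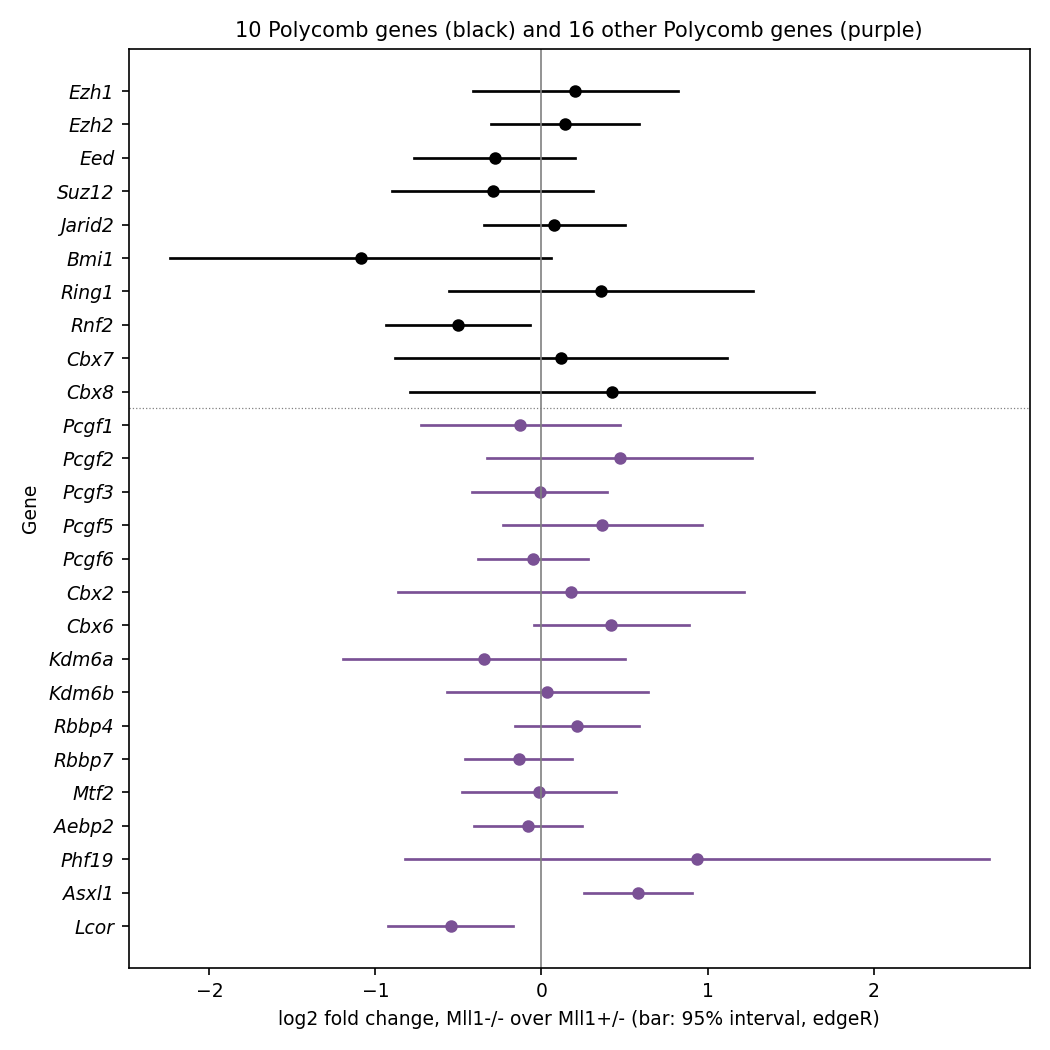
Log2 fold changes, Mll1-/- over Mll1+/-, with 95% intervals from edgeR, for the 10 Polycomb genes (black) and 16 other genes of the Polycomb system (purple). Among the black intervals only that of Rnf2 leaves out 0, and that of Bmi1 reaches 0.060.

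The promoters are shown for Bmi1 and Rnf2, because these are the members whose genotypes did not overlap. Each line holds the 250 bases before the annotated RefSeq start in GRCm38.p6, 5′ to 3′ along the gene, in lower case, with a match to a searched motif in capitals. The window of Bmi1 lies at chr2:18676768-18677017 on the + strand and that of Rnf2 at chr1:151500992-151501241 on the - strand.

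Bmi1: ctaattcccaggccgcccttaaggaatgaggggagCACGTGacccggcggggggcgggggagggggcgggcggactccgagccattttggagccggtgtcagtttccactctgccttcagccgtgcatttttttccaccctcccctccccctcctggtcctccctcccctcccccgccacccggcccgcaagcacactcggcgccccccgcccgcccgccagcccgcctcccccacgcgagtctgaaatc

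Rnf2: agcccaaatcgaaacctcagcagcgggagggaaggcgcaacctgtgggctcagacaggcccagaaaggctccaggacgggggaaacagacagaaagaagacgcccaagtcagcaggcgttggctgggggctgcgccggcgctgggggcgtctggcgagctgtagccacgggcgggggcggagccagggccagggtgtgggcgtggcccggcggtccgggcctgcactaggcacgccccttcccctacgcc

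The motifs were searched on both strands in 300 bases, which also take in 50 bases after the start, in 32851 promoters: CACGTG (the E-box bound by Myc), TTTGGCGC or TTTCGCGC (bound by E2F factors), and CTTTGAA or CTTTGAT (bound by the TCF/LEF partners of β-catenin). They were chosen after the expression values had been seen, and the searched letters of different motifs do not overlap in these windows. The capitals in Bmi1 mark a CACGTG, which also occurred in Cbx8 and in 7.15% of all promoters. Rnf2 held no match to any of them. A TCF/LEF match was found in Suz12 and in 8.65% of all promoters. An E2F match was found in Ezh2, against 0.813% of all promoters, and it is printed in 24 bases because Ezh2 is known as a target of E2F factors; it begins 4 bases into the annotated transcript, at chr6:47595012-47595035 on the - strand.

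Ezh2: ttgctgcgTTTGGCGCtcggtccg

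All 11 promoters listed for the 10 genes held more CG pairs than the median promoter, with 17 to 41 in 300 bases against 7. From 68.6% (for Eed) to 96.5% (for Suz12) of all promoters held fewer. These letters are a description of the windows and no binding was measured.

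Levels of different genes can be compared only per length, here as CPM per kilobase of exon. In Mll1+/- libraries the order was Eed (32.1 ± 8.89 CPM per kb), Suz12 (27.1 ± 1.39), Rnf2 (20.4 ± 4.99), Ezh2 (12.7 ± 1.69), Bmi1 (9.31 ± 1.78), Jarid2 (5.45 ± 0.711), Ezh1 (2.69 ± 0.438), Ring1 (1.50 ± 0.585), Cbx7 (1.19 ± 0.270) and Cbx8 (0.647 ± 0.403; SD, n = 4 each). The libraries of neighbours in this order overlapped for Eed and Suz12, Suz12 and Rnf2, Ezh2 and Bmi1, Ring1 and Cbx7, and Cbx7 and Cbx8. They did not overlap between Rnf2 and Ezh2, Bmi1 and Jarid2, Jarid2 and Ezh1, or Ezh1 and Ring1. In the Mll1-/- libraries the order of the means was the same except that Bmi1, at 4.38 ± 2.72 CPM per kb, fell behind Jarid2, at 5.75 ± 1.24 (SD, n = 4 each), and their libraries overlapped. In this genotype all neighbours overlapped except Ezh2 and Jarid2, so most of this order is not resolved. Eed, Suz12, Rnf2 and Ezh2 thus made up the upper end in both genotypes, and the chromobox members and Ring1 the lower end.

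**Figure D3:**
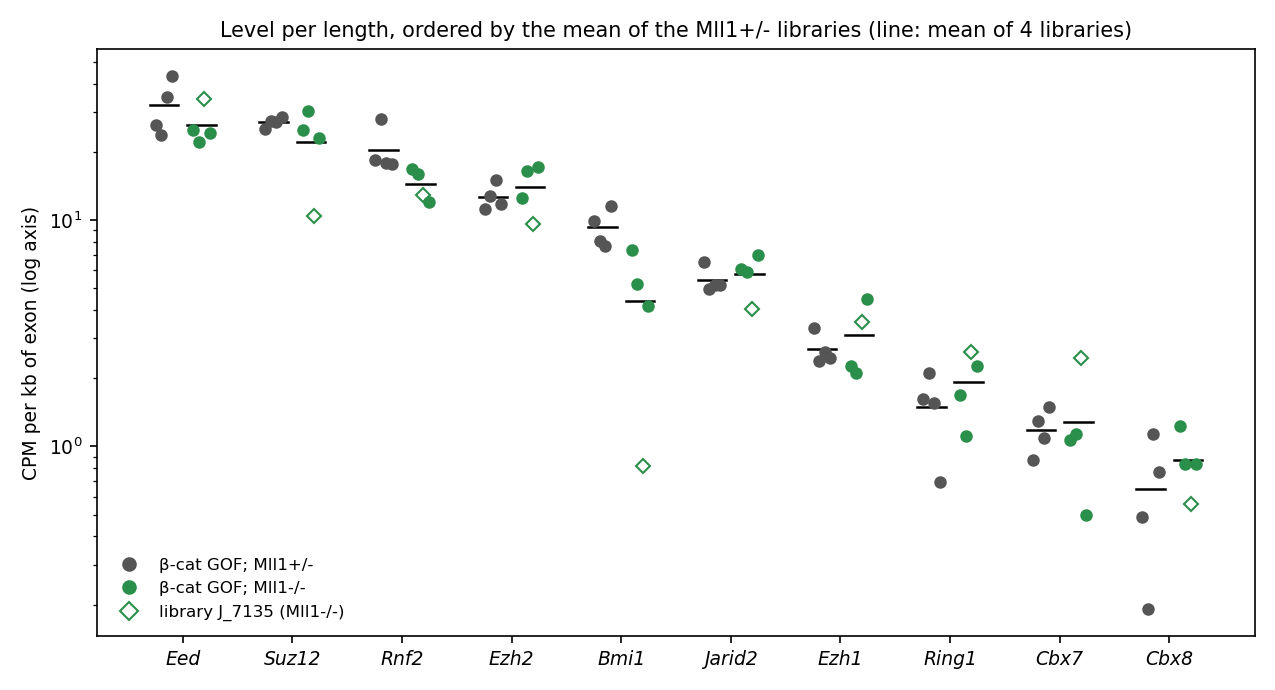
The same 10 genes as CPM per kilobase of exon on a log axis, ordered by their mean in the Mll1+/- libraries; points are libraries, lines are means of 4 libraries and the diamond is J_7135. By their means Eed, Suz12 and Rnf2 lead in both genotypes and Cbx8 is last, and the Mll1-/- points of Bmi1 reach down to 0.817.

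Bmi1 shares its place in PRC1 with Pcgf2 (Mel18), and a ratio within a library does not depend on how libraries are scaled. Pcgf2 was found at 6.22, 7.03, 5.61 and 4.20 CPM in the Mll1+/- libraries and at 7.55, 7.82, 4.22 and 12.4 CPM in the Mll1-/- libraries, with a log2 fold change of 0.47 ± 0.36 (SE; edgeR adjusted p = 0.738). The counts of Bmi1 exceeded those of Pcgf2 by 6.28, 4.55, 5.38 and 10.8 times in J_7079, J_7100, J_7134 and J_7139. In J_7075, J_7096, J_7135 and J_7136 the ratio was 3.85, 2.63, 0.772 and 1.33. The genotypes did not overlap, and the mean log2 ratio was lower by -1.83 in Mll1-/-. The exact two-sided permutation test gave p = 0.0286, the smallest that 70 assignments allow, and 0.114 after adjustment over the 4 ratios computed. Within the runs of library numbers the difference was -0.75 and -2.91, and without J_7135 it was -1.42.

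**Figure D4:**
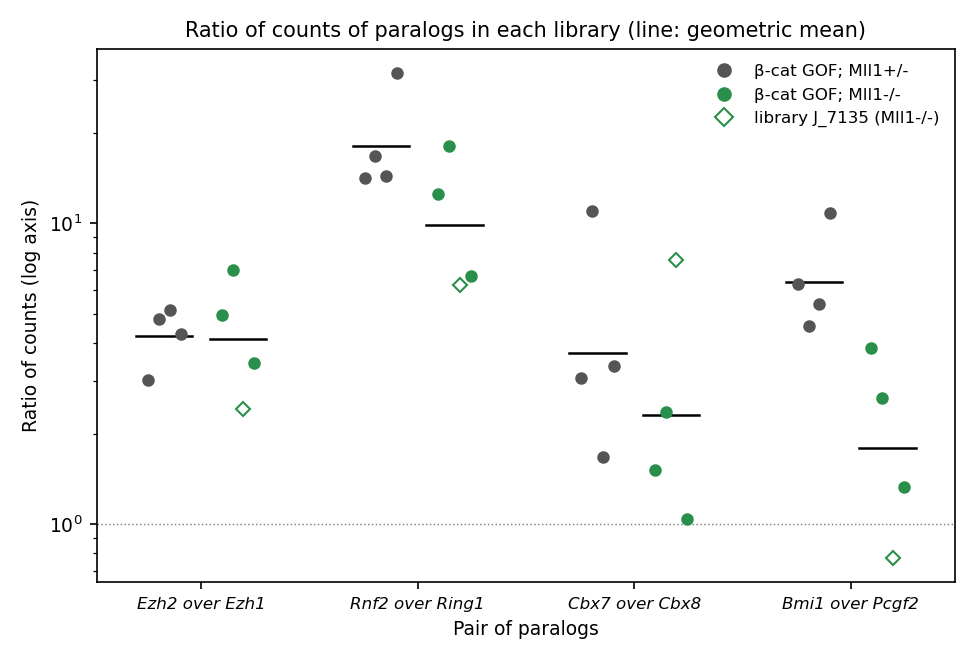
Ratio of the counts of 4 pairs of paralogs in each library, with 1 count added to each, on a log axis; lines are geometric means and the diamond is J_7135. The ratio of Bmi1 to Pcgf2 is the one in which the genotypes do not overlap, with Mll1+/- libraries from 4.55 up and Mll1-/- libraries up to 3.85.

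Of 39 other genes of the Polycomb system 38 were tested, and none passed the threshold (edgeR, adjusted p under 0.1), with 20 above 0, 18 below and a median log2 fold change of 0.018. At an unadjusted p under 0.05, 3 of them were found, Asxl1, Lcor and Scml2, the last with a log2 fold change of 1.72 and overlapping libraries, against 9.15% of all genes. Without overlap, 1 of the 38 lay lower and 1 higher, against 2.94% and 3.34% of all genes, so these counts are near the background. Asxl1, which with Bap1 removes the ubiquitin that PRC1 places on H2A, was found at 28.7, 29.9, 27.4 and 30.9 CPM in Mll1+/- and at 38.8, 42.1, 46.7 and 47.4 CPM in Mll1-/-. Its levels were even within each genotype and did not overlap, with a log2 fold change of 0.58 ± 0.15 (SE; edgeR adjusted p = 0.252). Under the Wald test of DESeq2 the adjusted p of Asxl1 was 0.00722, past the threshold. Lcor, whose locus also makes the PRC2 accessory protein PALI1, lay at 59.7 to 83.3 CPM in Mll1+/- and at 37.7 to 51.7 CPM in Mll1-/-, again without overlap (log2 fold change -0.55 ± 0.17, SE; edgeR adjusted p = 0.391; DESeq2 adjusted p = 0.0990).

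None of the 9 other subunits of PRC2 that were tested, Lcor among them, was called. The histone-binding proteins Rbbp4 and Rbbp7 had log2 fold changes of 0.21 and -0.14, the latter -0.22 without J_7135. Among the accessory subunits Mtf2 had -0.013, Aebp2 -0.082 and Phf19 0.94, the last at under 5 CPM in every library with an interval of -0.82 to 2.69. The Pcgf proteins, which define the variants of PRC1, numbered 5 besides Bmi1 and none was called. Pcgf3 and Pcgf6, of variant PRC1, lay at 32.0 to 45.5 CPM and 45.8 to 62.4 CPM over all 8 libraries, with log2 fold changes of -0.011 and -0.050. Pcgf1 had -0.13 and Pcgf5 0.37, and without J_7135 they had -0.22 and 0.56. Without J_7135, 4 of the 38 other Polycomb genes, Pcgf2, Pcgf5, Phf19 and Asxl1, had every Mll1-/- library above every Mll1+/- library, against 5.28% of all genes.

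The chromobox genes Cbx2 and Cbx6 had log2 fold changes of 0.18 and 0.42, neither of them called. Without J_7135 that of Cbx2 turned to -0.30 and that of Cbx6 was 0.29. J_7135 was the lowest of all libraries for Bmi1, Suz12, Ezh2 and Jarid2 at once, and the highest for Cbx7 (15.9 CPM), Ring1 (8.44 CPM) and Cbx6 (31.1 CPM). The demethylases of H3K27, Kdm6a and Kdm6b, had log2 fold changes of -0.35 and 0.034 (edgeR adjusted p = 0.835 and 0.982). Without J_7135 these were -0.17 and 0.21.

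Ezh2 is commonly found with genes of the cell cycle, so it was set beside 20 proliferation genes. Of these 19 had log2 fold changes above 0 and 5 an unadjusted p under 0.05, all higher in Mll1-/-, against 9.15% of all genes in either direction, but none was called, and the median was 0.30. Mki67 had a log2 fold change of 0.13 (edgeR adjusted p = 0.896) and Top2a of 0.37 (edgeR adjusted p = 0.534). Across the 8 libraries the log2 CPM of Ezh2 showed no relation with the mean log2 CPM of the 20 genes (Pearson r = -0.023, permutation p = 0.958; Spearman rho = -0.12, permutation p = 0.793). Without J_7079 and J_7135, the libraries farthest from the median of the proliferation mean, r was -0.020, and after subtracting the genotype means it was -0.26 (permutation p = 0.527). J_7135 had the highest proliferation mean and the lowest Ezh2 level of the 8 libraries.

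Over the 8 libraries, among 12170 genes above 1 CPM in each, the genes whose log2 CPM followed Ezh2 most closely included Fyn (Pearson r = 0.951), Zfp949 (0.934), Gm48549 (0.924) and Pnliprp2 (0.923). For Rnf2 they were Gm12267 (0.974), Cbll1 (0.952), Cox8a (0.931), Rabl3 (0.930) and Ugt2b35 (0.923). The points share their libraries, and the highest of so many correlations over 8 points are a description only. Between members, Bmi1 and Suz12 gave r = 0.92, with both lowest in J_7135. Jarid2 and Cbx7 gave r = -0.925, with Jarid2 lowest and Cbx7 highest in J_7135. Neither was computed without this library. Suz12 was highest in J_7096, at 149 CPM, where Bmi1 lay at 20.7 CPM, below every Mll1+/- library.

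Cdkn2a, the locus that PRC1 with Bmi1 is known to hold down, had 0 counts in all 8 libraries, which allows at most 0.162 to 0.241 CPM. Of 30 developmental regulators known as Polycomb targets elsewhere, 3 had enough counts to be tested and 3 had no count in any library. The tested ones were Tbx3, Pax6 and Sox17, named after their values were seen, and none was called. Sox17 had 58, 39, 61 and 70 counts in J_7079, J_7100, J_7134 and J_7139 and 8, 0, 1 and 4 counts in J_7075, J_7096, J_7135 and J_7136, lower in every Mll1-/- library. It was 1 of the 3 tested, while 2.94% of all genes lay lower without overlap. The lowest edgeR adjusted p of the 3 was 0.195. Tbx3 had 162 to 336 counts in Mll1+/- and 158 to 405 in Mll1-/-, and Pax6 had 5 to 39 and 1 to 26, both with overlap.

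Levels of marker genes moved with the genotype in the same libraries, which had been sorted with antibodies to EpCAM, CD45 and CD24 besides GFP. The summed level of 10 stem cell markers was 23265 to 27801 CPM in Mll1+/- and 11039 to 17761 CPM in Mll1-/-, mostly from Olfm4, at 19281 to 22949 and 8080 to 14429 CPM. By gene, 1 of the 10 was higher and 2 lower at an unadjusted p under 0.05, and Lgr5 had a log2 fold change of -0.055. Over all genes tested, 9.15% reached this unadjusted threshold in either direction, and the marker counts that follow stand beside that share. Of 10 goblet cell markers 6 were higher in Mll1-/- at an unadjusted p under 0.05 and 1 lower (sum 615 to 813 against 699 to 1297 CPM), of 10 Paneth cell markers 1 was higher and 6 lower (3974 to 7127 against 2214 to 5910 CPM), and of 8 enterocyte markers 5 were lower (735 to 845 against 502 to 773 CPM). The 6 enteroendocrine markers tested were all lower, 2 of them at that threshold (sum of the 10 listed 9.95 to 57.3 against 7.03 to 12.5 CPM). The 10 immune markers summed to 9.94 to 16.8 and 3.46 to 12.9 CPM and the 10 stromal and endothelial markers to 8.33 to 12.1 and 53.5 to 123 CPM. Of the stromal and endothelial markers 3 were tested and 1, Vim, which is not particular to stroma, was higher at that threshold, while Pecam1 had a log2 fold change of -0.018. In addition, 6 epithelial markers, all above 0 in log2 fold change, summed to 2730 to 2997 and 3438 to 4139 CPM. None of these markers passed the adjusted threshold. Their part in the levels of Bmi1, Rnf2, Asxl1 and Lcor was not tested.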

How the data were processed

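As the study describes it, sorted cells of 1 mouse gave each library, by a protocol based on Smart-seq2, without molecular identifiers. Floors thus cover counting error only, while the intervals of fold changes include the spread between libraries. The authors aligned reads to mm10 with GSNAP and deposited raw counts of reads per gene from featureCounts 1.6.3 (Ensembl annotation, strand not used, tool names from the submitters' processing notes and the file header). A second deposited table holds signal values, the counts over 1 size factor per library, of 25485 genes; it was used only for gene symbols. Gene lengths come from the deposited count table. Rows of 92 spike-in transcripts were left out.

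Counts were filtered with filterByExpr (at least 10 counts, 15 in total), scaled with TMM and fitted with edgeR 4.0.16 in R 4.3.3 (robust quasi-likelihood, genotype only). Benjamini-Hochberg adjustment was over all genes, with the threshold of 0.1. The study used that threshold with DESeq2, whose Wald test called 406 genes here. Standard errors come from the fold change and its F statistic. The test was tested on simulated data. Alternatives used DESeq2 1.42.0 and limma 3.58.1. Figures used matplotlib 3.10.9.

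The members and gene lists were chosen with earlier results of these data known. Genes named are the 10 members and Kmt2a, fixed Polycomb, proliferation and marker genes however they moved, other Polycomb genes with an adjusted p under 0.1 or with an unadjusted p under 0.05 and no overlap, and the 5 genes most like Ezh2 and Rnf2; 2 of the genes under this rule are not reported here. Scml2, Sox17, Tbx3, Pax6, Vim and Gm5946 were named after their values were seen. Words of 31 bases were counted in GENCODE transcripts. The labels name each mouse as a separate sample, and p-values measure the spread between these samples. Whether J_7135, with both Xist and Y-linked transcripts, holds RNA of a single mouse was not tested.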

Additional observations from a re-analysis of the deposited data

Results flagged for a closer look

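Within each genotype, the highest and lowest CPM of each of the 10 genes was compared with its nearest neighbour by Dixon's criterion for 4 samples at the 95% level, and 2 of 20 groups were picked out, where chance picks about 1 in 20 groups. Jarid2 lay at 63.2 CPM in J_7079, above the other 3 Mll1+/- libraries, with a gap of 0.862 of the range. Rnf2 lay at 115 CPM in J_7100, above the other 3 Mll1+/- libraries, with a gap of 0.941 of the range. Without J_7100 the log2 fold change of Rnf2 was -0.32 in place of -0.50.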

How the results depend on the processing

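No paired analysis was possible because the libraries carry numbers that the genotypes do not share. Scaling to the spike-in transcripts was not run, since no library held more than 36 spike-in counts. No member was called under any of 15 alternatives; the log2 fold change of Bmi1 ranged from -1.46 to -0.74 and that of Rnf2 from -0.59 to -0.32. The number of genes called was 14 with DESeq2 size factors, 8 with upper-quartile scaling, 406 with the DESeq2 Wald test, 103 with limma-voom, 47 without a filter, 34 with at least 10 counts in every library, 0 with the run of library numbers as a block, and 0 to 45 with a library left out, the highest without J_7135. Members with an unadjusted p under 0.05 numbered 2, Bmi1 and Rnf2, with the Wald test, without a filter, with the stricter filter and with the block. With a library left out they numbered 0 to 2. Over all genes, 1835 of 16445, 3359 of 40036, 1394 of 13066 and 1642 of 16445 reached it in these settings, in the same order. With a library left out 1189 to 1847 genes did. The Wald test called 2 other Polycomb genes, Asxl1 and Lcor. With limma-voom the median log2 fold change of the members was -0.100. Ratios of paralogs within the runs of library numbers differed by 0.63 and -0.71 for Ezh2 over Ezh1, -0.034 and -1.72 for Rnf2 over Ring1, and -0.75 and -2.91 for Bmi1 over Pcgf2. By CPM without division by length 2 of 10 members kept their rank. Signs turned in 23 cases of genes near 0: with limma-voom Ezh1 (-0.099), Cbx7 (-0.16), Cbx2 (-0.14) and Mtf2 (0.050). With a library left out the ranges were -0.025 to 0.35 for Ezh1, -0.028 to 0.21 for Jarid2, -0.40 to 0.39 for Cbx7, -0.25 to 0.0098 for Pcgf1, -0.090 to 0.072 for Pcgf3, -0.13 to 0.016 for Pcgf6, -0.30 to 0.47 for Cbx2, -0.12 to 0.21 for Kdm6b and -0.20 to 0.081 for Mtf2. The cause was not tested. Leaving out J_7135 for the count of members without overlap was chosen after seeing the data. With 4 mice per genotype, Cbx8 and Ring1, at under 10 CPM, had intervals wide enough to hold changes of over 2-fold. The same held for Cbx7 (0.542-fold to 2.17-fold), and the interval of Bmi1 reached down to 0.212-fold.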

Other observations

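Kdm6a, the X-linked demethylase of H3K27, lay at 25.6, 37.6, 57.9 and 29.5 CPM in J_7134, J_7075, J_7096 and J_7135, the libraries with Y-linked transcripts above 1 CPM in sum, and at 77.7, 74.5, 71.1 and 71.1 CPM in J_7079, J_7100, J_7139 and J_7136. The former were the 4 lowest of the 8, and they belong to both genotypes, 1 to Mll1+/- and 3 to Mll1-/-. This pattern was noticed in the data, and no test was run on it.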
